A study of Mus musculus with 35 samples.

Results

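Lymphoid tumours of mice lacking both Lig4 and p53 were set against germinal centre B cells in 11 of the 35 arrays of a study of mouse B-cell development. The members were chosen by array title, 6 arrays of tumours titled Lig4/P53 KO and 5 arrays titled Germinal Centre B. The tumours came from double knock-out mice, with the tissue given only as tumour, and age, clonality and the share of tumour cells in each sample were not given. The germinal centre cells were wild-type B cells of strain B6, sorted from spleen as B220+ and PNA-high. Genotype, background, tissue, sorting and malignancy therefore differ together between the groups and cannot be told apart. For some genes levels are also given beside 4 lymphoid tumours of Bcl6 knock-in mice and beside 3 pro-B samples, wild-type bone marrow cells sorted as B220+, CD43-high and IgM-, replicates 1 and 2 of strain 129 and replicate 3 of B6.

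Lig4 encodes the ligase that closes DNA breaks by end joining, including the breaks that the Rag recombinase makes when antigen receptor genes are assembled in progenitor B cells. The factor p53 stops or kills cells that carry such breaks, and mice without both proteins are known to develop progenitor B-cell lymphomas in which Myc is translocated and amplified. Germinal centre B cells are mature, antigen-activated cells that divide fast, mutate their receptors under the repressor Bcl6 and present antigen to helper T cells through MHC class II. In both settings growth depends on Myc, a transcription factor that drives ribosome production and nucleotide synthesis.

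Values are log2 probe intensities on Affymetrix Mouse 430A2 arrays, normalized by the authors with RMA, and 12393 genes were tested, each by its brightest probe set. Arrays of the same group correlated at 0.948 to 0.991 among tumours and at 0.959 to 0.991 among germinal centre samples, against 0.885 to 0.932 between the groups. Signal for 18S ribosomal RNA lay between 4.15 and 6.15 (log2) in the tumours and between 10.04 and 11.13 in germinal centre cells, and the 3' minus 5' difference of the control transcripts lay between 2.25 and 3.64 in the tumours and between 0.68 and 1.55 in germinal centre cells. Both measures of the RNA thus separate the groups without overlap, and their part in the results cannot be told apart from the group. With 18S signal as a covariate limma called 5 genes higher and 13 lower, and of 110 called genes among 147 followed through all settings 4 kept their call (Enpep, Cdkn2a, Nav2 and Xcl1). Whether arrays of a group came from separate mice was not stated, so p-values measure only the spread between arrays. In these bulk samples fewer cells of a type and less RNA per cell cannot be told apart.

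Of the genes tested, 1954 (15.8%) differed between Lig4/p53 tumours and germinal centre B cells at a Benjamini-Hochberg adjusted p under 0.05 in limma, and only these are called changed. In the tumours 1140 genes (9.2%) were higher and 814 (6.57%) were lower, of which 1030 higher and 767 lower genes differed by at least 1 on the log2 scale. The median difference over all genes was 0.12, with a median half-width of the 95% interval of 0.75. Arrays of the groups did not overlap for 2835 genes (22.9%), of which 1638 were also called. Counts in gene lists are read against the shares of 9.2% and 6.57%. No detection calls were used, so where a group lies near the bottom of the scale a fold is a ratio of normalized signals, not a measure of how much RNA changed.

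Myc (chromosome 15) had a level of 10.1 at the lowest, 11.03 at the median and 11.31 at the highest of the 6 tumours, against 7.75, 8.08, 7.9, 8.44 and 10.23 in the 5 germinal centre samples. Every tumour was above 4 of the germinal centre samples, and the remaining one, replicate 5, exceeded the lowest tumour. The Myc log2 difference was 2.44 ± 0.57 (SE), a 5.41-fold higher signal in tumours (adjusted p = 0.00261, limma), and it was 2.87 without germinal centre replicate 5. Myc was also higher in the Lig4/p53 tumours than in the Bcl6 tumours, where it lay between 5.77 and 7.19 (difference 4.24, adjusted p = 5.07e-06, limma).

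Bcl6, the repressor that defines the germinal centre programme, had levels of 4.78, 5.8 and 6.44 at the lowest, median and highest tumour, against 11.28, 11.4, 11.24, 11.57 and 10.63 in germinal centre cells. The groups lay far apart, and the difference of -5.6 ± 0.63 was 48.6-fold (adjusted p = 7.73e-08, limma). Gcsam, a signalling protein of germinal centre B cells, lay between 2.36 and 3.16 in tumours, with a median of 2.87, against 9.05, 8.41, 7.82, 8.0 and 6.17 in germinal centre cells. The tumour values were at the low end of the array scale, where pro-B cells also lay (2.84 to 3.18). Sox4, a transcription factor needed by progenitor B cells, ran the other way, with 8.12, 9.06 and 9.19 at the lowest, median and highest tumour against 5.89, 6.88, 6.05, 4.71 and 6.06 in germinal centre cells (difference 2.96 ± 0.64, adjusted p = 0.00114, limma). Its level in pro-B cells was 7.63 to 10.13, and the difference of -0.27 between tumours and pro-B cells did not pass (adjusted p = 0.828, limma). The 18S signal of the pro-B samples, 10.8 to 11.3, lay wholly above that of the tumours, so its part in every comparison with them cannot be told apart. Of the 147 genes followed, 66 were called against pro-B cells and 1 with 18S signal as a covariate. All 6 Sox4 probe sets had a higher mean in tumours, by 0.19 to 2.96.

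**Figure D1:**
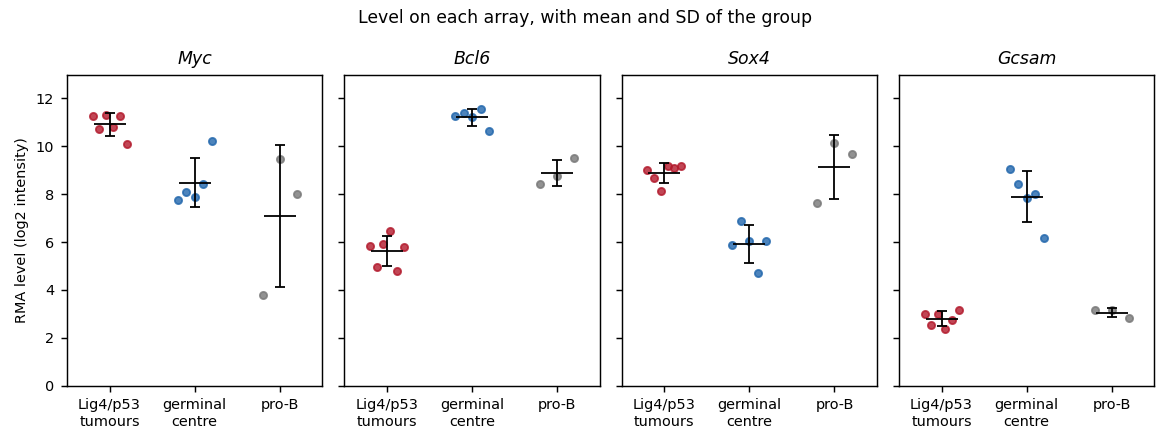
Log2 RMA level of Myc, Bcl6, Sox4 and Gcsam on each array (points), with the group mean and SD (bars), in Lig4/p53 tumours (n = 6), germinal centre B cells (n = 5) and pro-B cells (n = 3). Tumours and germinal centre arrays are fully separated for Bcl6, Sox4 and Gcsam, while germinal centre replicate 5 reaches 10.23 for Myc.

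Tumours of such mice are known as progenitor B-cell lymphomas, so genes of the pro-B and pre-B stages were followed, and they moved in both directions. The tumours were not set against the pre-B arrays of the study. The recombinase genes were higher: Rag1 had levels of 5.83, 8.41 and 9.18 at the lowest, median and highest tumour, against 5.52, 5.09, 4.93, 4.23 and 3.97 in germinal centre cells, a 10.1-fold difference (3.33 ± 0.64, adjusted p = 0.000281, limma). No tumour overlapped the germinal centre samples, although tumour replicate 2 came close to the highest of them. Rag2, its partner, differed by 2.12 (adjusted p = 8.3e-05, limma), with tumour replicate 2 at 3.29 and the other tumours between 5.08 and 5.92.

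Dntt, the terminal transferase that adds bases at receptor gene joins in pro-B cells, was low in the tumours. It lay at 3.32, 3.75 and 4.21 at the lowest, median and highest tumour, against 7.18, 6.95, 5.43, 4.29 and 5.47 in germinal centre cells and 10.86 to 12.1 in pro-B cells. The tumours were below both groups, with differences of -2.09 from germinal centre cells (adjusted p = 0.00167, limma) and -7.61 from pro-B cells (adjusted p = 4.36e-11, limma). The other Dntt probe sets differed from germinal centre cells by -1.77 and -0.15. Vpreb1, part of the surrogate light chain, lay between 3.24 and 5.33 in tumours, with a median of 4.05, against 5.86, 5.25, 5.36, 4.16 and 5.17 in germinal centre cells. These groups overlapped (difference -0.93, adjusted p = 0.37, limma), and pro-B cells averaged 10.96 ± 0.86 (SD, n = 3), far above both. The surrogate light chain and recombinase list thus had 2 of 6 measured members higher and 1 lower, with a median difference of -0.38.

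Among 16 transcription factors of progenitor B cells 3 rose and 4 fell, with a median difference of -0.11. Besides Sox4, the tumours had more Myb, a regulator of progenitor growth, at 11.75 to 12.08 (median 11.79), against 10.23, 10.14, 9.99, 9.6 and 9.74 in germinal centre cells, and Gfi1, a repressor in early blood cells (difference 2.07, adjusted p = 0.00138, limma). The fallen ones were Mef2c (-2.96), Tcf4 (-2.63), Runx1 (-2.08) and Ebf1 (-1.6), factors that act in B-lineage commitment or maturation. Ebf1 was at 6.12 in tumour replicate 3 and between 8.45 and 8.73 in the others. Runx1 was also below pro-B cells (difference -3.77, adjusted p = 3.31e-05, limma). Pax5, the commitment factor of the lineage, read 3.0 to 3.98 in tumours and 3.18 to 4.11 in germinal centre cells, near the low end of the scale in cells known to need it, and is read no further.

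Of 8 measured progenitor receptors 2 rose and 2 fell, with a median difference of 0.18. Il7r, the interleukin-7 receptor chain on which mouse progenitor B cells depend, had 7.27, 9.47 and 10.75 at the lowest, median and highest tumour, against 7.38, 7.82, 7.36, 7.06 and 8.05 in germinal centre cells. Tumour replicate 2 fell inside the germinal centre range and the other tumours were above it (difference 1.87 ± 0.47, adjusted p = 0.00514, limma). Cd93, a surface protein of immature B cells, was 7.46-fold higher in tumours (adjusted p = 0.00374, limma) by its brightest probe set, while its other probe set differed by 0.18. Flt3, a receptor of the earliest progenitors, differed by -2.21 and was below pro-B cells as well (-2.48, adjusted p = 0.000101, limma). Kit, the other member called lower, read 1.9 to 2.9 in tumours and 2.8 to 4.62 in germinal centre cells, overlapping near the bottom of the scale, and its other probe set differed by -0.08, so it is read no further. With dim genes removed 0 receptors were lower.

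Enpep, the BP-1 aminopeptidase that marks late pro-B and pre-B cells in the mouse, was bright in every tumour. It read 7.81, 8.34 and 8.87 at the lowest, median and highest tumour, against 2.7, 2.57, 2.47, 2.66 and 2.51 in germinal centre cells, where it sat at the bottom of the scale. The difference was 5.75 ± 0.48 (adjusted p = 2.34e-10, limma). Pro-B cells lay between, at 3.29 to 5.93, and the tumours exceeded them by 3.65 (adjusted p = 2.96e-05, limma). Cd79a, a signalling chain of the B-cell receptor and a marker of the B lineage, was bright in all tumours, at 9.73 to 11.03 (median 10.15) in tumours against 10.31, 10.68, 11.21, 11.07 and 11.34 in germinal centre cells, a difference that did not pass (-0.7, adjusted p = 0.194, limma). One of the pro-B arrays, replicate 1, had a narrow spread of levels, with an interquartile range of 2.092, against 3.74 to 4.23 in the tumours. Without it and 2 other such arrays, Dntt, Vpreb1, Enpep, Runx1 and Flt3 still differed from pro-B cells, by -7.7, -7.21, 2.96, -4.6 and -2.71.

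In the tumours a few immunoglobulin probe sets were bright and most kappa variable segments were dim. These genes were selected after their values were seen. Of 14 measured kappa variable segments 11 were lower in tumours and 0 higher (limma, adjusted p under 0.05; 6.57% of all genes were lower), and 9 of them read under 5 in every tumour and over 5 in every germinal centre sample. Igkv6-14 read 2.48, 2.89 and 4.14 at the lowest, median and highest tumour, against 8.57, 8.32, 9.24, 8.81 and 8.94 in germinal centre cells. Other kappa probe sets stayed bright: Igkv8-30, whose probe set is of the type that can read several related transcripts, was at 10.37 to 11.84 (median 11.78) in tumours against 12.93, 13.06, 13.27, 13.34 and 13.19 in germinal centre cells.

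The heavy chain gave a split picture by probe set. Igha, the constant region of IgA, lay at 3.08, 3.82 and 5.76 at the lowest, median and highest tumour, against 10.03, 10.75, 9.91, 9.01 and 11.17 in germinal centre cells (difference -6.0, adjusted p = 9.29e-05, limma). Ighm, listed under the mu constant region, had 11 probe sets, 3 with a higher and 8 with a lower mean in tumours. Its brightest read 12.01 to 13.43 (median 12.87) in tumours, above 11.05, 11.13, 11.62, 11.83 and 11.72 in germinal centre cells, but did not pass (difference 1.28, adjusted p = 0.4, limma). The spread in that test was pooled over all groups. By this probe set Ighm had an SD of 0.51 in Lig4/p53 tumours, 0.35 in germinal centre cells and 2.67 in Bcl6 tumours. A set of 5 of its probe sets had means of 3.82 to 5.26 in tumours and 10.27 to 11.61 in germinal centre cells. With the mean of all its probe sets the Ighm log2 difference was -2.94 (adjusted p = 0.000308, limma), so the gene is given no direction.

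Igll1, the other surrogate light chain gene, and Iglv1, a lambda variable segment, were bright in most arrays of both groups. Igll1 read 6.88, 9.07 and 9.16 at the lowest, median and highest tumour, 9.73, 9.42, 9.49, 9.58 and 8.99 in germinal centre cells, and only 7.29 to 7.71 in pro-B cells, which make surrogate light chain. Iglv1 read 5.7, 9.36 and 9.7 at the lowest, median and highest tumour, against 9.81, 9.19, 9.59, 9.24 and 9.22 in germinal centre cells. Tumour replicate 2 was the lowest for both genes, and neither passed the test (adjusted p = 0.316 for Igll1 and 0.515 for Iglv1, limma). Igll1 is related in sequence to lambda light chains, and whether its probe set also reads them was not tested.

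**Figure D2:**
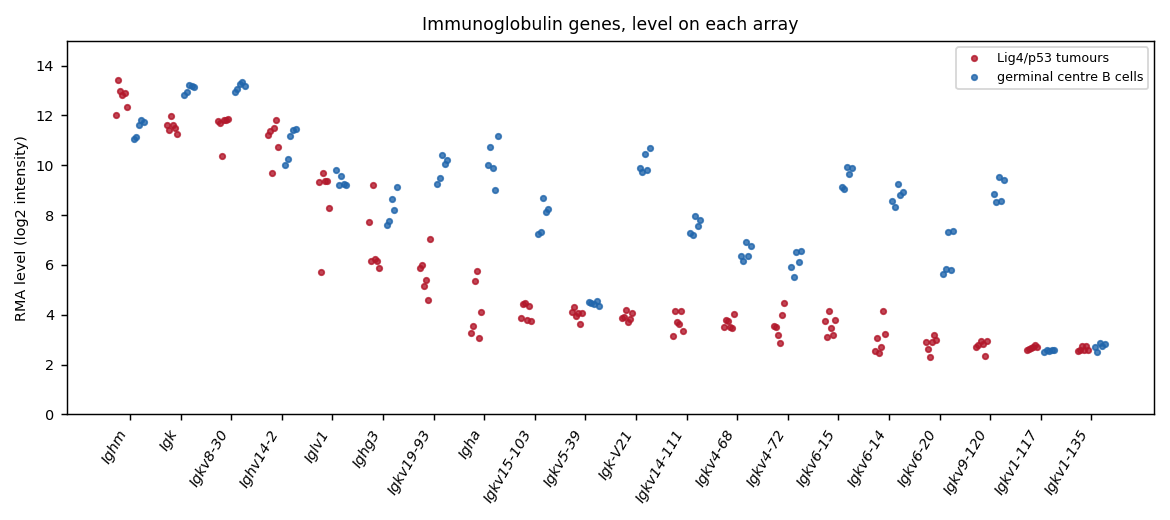
Log2 RMA level of each measured immunoglobulin gene on each array, with Lig4/p53 tumours (n = 6) left of germinal centre B cells (n = 5), ordered by the tumour mean. Ighm, Igk, Igkv8-30 and Ighv14-2 are bright in every tumour, while 9 kappa segments lie under 5 in all tumours and over 5 in all germinal centre arrays.

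Genes of the germinal centre reaction were low in the tumours: 8 of 12 measured members were lower and 0 higher, with a median difference of -2.55, and Bcl6 and Gcsam are among them. Gna13, a G protein that holds B cells inside the germinal centre, had 4.91, 6.12 and 7.12 at the lowest, median and highest tumour, against 9.77, 9.81, 10.07, 9.92 and 9.98 in germinal centre cells (difference -3.75 ± 0.68, adjusted p = 0.000154, limma). Its germinal centre samples were nearly identical and the tumours scattered below them. Mef2b, a transcription factor that acts on Bcl6, differed by -3.45, the death receptor Fas by -3.35 and the factor Mybl1 by -2.7. Stap1, an adaptor of receptor signalling, and Irf8, a factor of germinal centre B cells, differed by -2.4 and -1.57. Pro-B cells were as low as the tumours for Mef2b (3.13 to 3.38, against 3.31 to 4.27 in tumours). The count of 8 stood without any single array.

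Surface genes of mature B cells moved in the same direction, with 9 of 15 lower, 0 higher and a median difference of -2.17. Cr2, the complement receptor of mature B cells, read 3.08, 3.46 and 3.91 at the lowest, median and highest tumour, against 9.06, 9.28, 10.39, 10.36 and 10.65 in germinal centre cells, an 88.4-fold difference (adjusted p = 1.04e-11, limma). The chemokine receptor Ccr6 differed by -4.41, the low-affinity IgE receptor Fcer2a by -3.78 and the follicle-homing receptor Cxcr5 by -3.63, with tumour replicate 6 at 7.68 for Cxcr5 and the others no higher than 4.97. S1pr1, the receptor by which lymphocytes leave tissue, differed by -2.56. Cd22, an inhibitory receptor, did not pass, at 9.78 ± 0.18 in tumours and 10.42 ± 0.55 in germinal centre cells (SD, n = 6 and 5, difference -0.65 with a 95% interval of ± 0.79, adjusted p = 0.325, limma). Downstream signalling genes of the antigen receptor had 1 of 12 lower, the phosphatase Ptpn6 (-1.42), and a median difference of -0.46. That count was 5 with only the 2 groups fitted, 3 with the mean of probe sets or without the 3 arrays of narrowest spread, and 7 with array weights.

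Co-stimulation genes, through which B cells and T cells signal to each other, had 6 of 10 members lower and 0 higher, with a median of -2.17. Cd83, a surface protein of activated B cells that holds MHC class II at the membrane, read 3.64, 6.38 and 7.74 at the lowest, median and highest tumour, against 11.89, 11.8, 11.63, 11.62 and 11.23 in germinal centre cells. That 49.3-fold difference (adjusted p = 2.97e-09, limma) came with a wide spread among tumours (SD 1.53) and a narrow one among germinal centre samples (SD 0.25). Slamf1 differed by -4.59, Icosl by -2.61, Cd86 by -2.47, and the PD-1 ligands Cd274 and Pdcd1lg2 by -2.49 and -1.87. For Icosl the highest tumour, at 9.14, lay above the lowest germinal centre sample, at 8.86, and its second probe set differed by only -0.23.

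MHC class II presentation was lower in the tumours, with 8 of 10 measured members lower, 0 higher and a median difference of -1.95. H2-Aa and H2-Eb1 encode chains of the classical molecules that hold peptide, and H2-Oa the non-classical chain that restrains peptide loading in B cells. Their promoters are known to carry a conserved Y box, bound by the factor NF-Y, beside the sites through which the co-activator Ciita acts. These 3 are shown because each carries the Y box in the window from 250 bases before to 50 bases after its start (RefSeq, build GRCm38.p6, gene strand, 5' to 3'). Capitals mark the letters CTGATTGG, searched on both strands. H2-Oa was added to the others after its values were seen.
H2-Eb1, chr17:34305617-34305916, plus strand: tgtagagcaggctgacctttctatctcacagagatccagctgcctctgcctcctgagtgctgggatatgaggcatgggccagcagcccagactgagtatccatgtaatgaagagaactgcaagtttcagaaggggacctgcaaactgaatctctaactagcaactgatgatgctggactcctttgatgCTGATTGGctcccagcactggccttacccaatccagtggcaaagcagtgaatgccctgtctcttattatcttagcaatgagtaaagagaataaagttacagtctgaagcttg
H2-Aa, chr17:34287774-34288073, minus strand: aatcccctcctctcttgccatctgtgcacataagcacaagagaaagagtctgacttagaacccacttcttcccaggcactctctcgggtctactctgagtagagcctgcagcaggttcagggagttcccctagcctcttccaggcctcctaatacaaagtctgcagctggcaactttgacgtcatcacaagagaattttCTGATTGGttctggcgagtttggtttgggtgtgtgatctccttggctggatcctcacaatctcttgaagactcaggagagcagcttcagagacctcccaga
H2-Oa, chr17:34092129-34092428, plus strand: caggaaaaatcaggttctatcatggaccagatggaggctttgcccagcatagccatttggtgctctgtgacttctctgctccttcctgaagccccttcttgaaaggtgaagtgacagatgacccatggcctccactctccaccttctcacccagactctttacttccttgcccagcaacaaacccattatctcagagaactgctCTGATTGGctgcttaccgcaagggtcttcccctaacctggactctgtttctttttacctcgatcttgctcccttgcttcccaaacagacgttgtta

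The promoter table held 10 of the 13 listed class II genes, among them the unmeasured H2-Eb2, H2-DMb1 and H2-Ob but not H2-Ab1, Cd74 or Ciita. The Y box letters stood in 4 of these 10 (40.0%), against 1166 of 27025 promoters of the same length (4.31%), and a match is a description of letters only. H2-Oa read 4.93, 5.73 and 7.07 at the lowest, median and highest tumour, against 9.74, 9.46, 9.86, 9.96 and 10.11 in germinal centre cells, a 15.2-fold difference (adjusted p = 8.04e-08, limma). H2-Eb1 read 8.51, 9.17 and 9.98 at the lowest, median and highest tumour, against 11.28, 11.47, 12.03, 11.92 and 12.1 in germinal centre cells (difference -2.49, adjusted p = 4.25e-06, limma). H2-Aa read 9.2, 9.91 and 10.56 at the lowest, median and highest tumour, against 11.33, 11.42, 11.61, 11.67 and 11.58 in germinal centre cells (difference -1.61, adjusted p = 0.00374, limma). All 3 were separated on every array, but the classical genes kept a bright signal in the tumours and H2-Oa read near 5 or 6 in most of them.

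The peptide-loading chains H2-DMb2 and H2-DMa differed by -3.87 and -2.68, while the invariant chain Cd74 differed by -1.18 and stayed at 11.4 to 12.44 (median 12.25) in tumours, against 12.82, 13.23, 13.57, 13.34 and 13.51 in germinal centre cells. Ciita itself read 5.42, 6.19 and 6.56 at the lowest, median and highest tumour, against 7.64, 8.07, 8.68, 8.93 and 8.58 in germinal centre cells (difference -2.28 ± 0.47, adjusted p = 0.000645, limma). Pro-B cells had H2-Oa at 4.97 to 6.6 and H2-Eb1 at 8.66 to 9.48, inside or near the tumour range, and neither passed (adjusted p = 0.799 and 0.762, limma). The list as a whole leaned higher in tumours than in pro-B cells, with a median difference of 1.04. Of its 10 measured members 2 were called higher and 0 lower, against 13.2% of all genes higher. Its summed linear signal was 2940 to 9086 in pro-B cells and 8831 to 15334 in tumours. Against germinal centre cells the count of lower members was 6 to 8 without single arrays. H2-Ab1 lost its call without any of 6 of them. Cd74 lost it without any of 3, germinal centre replicates 3 and 5 and tumour replicate 2, where the count was 6.

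**Figure D3:**
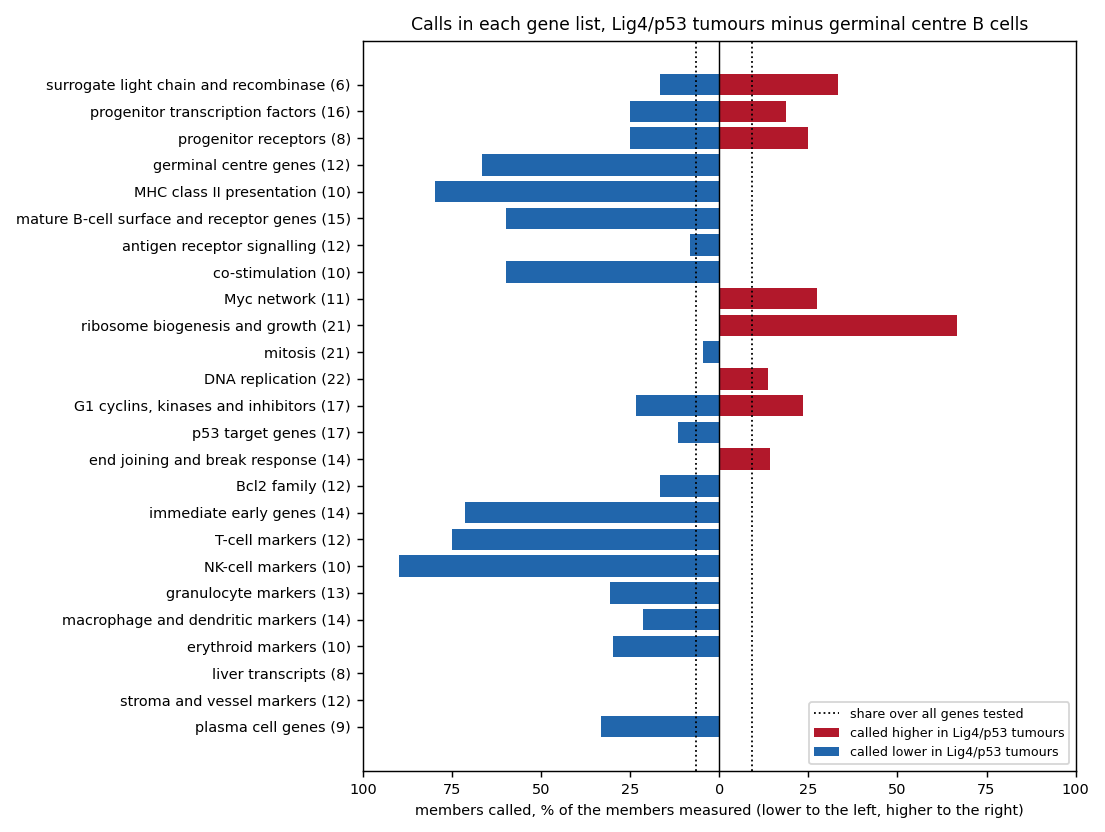
Share of the measured members of each list that limma called higher (right) or lower (left) in Lig4/p53 tumours than in germinal centre B cells, with the number of measured members in brackets. Dotted lines mark the shares over all genes, 9.2% higher and 6.57% lower. Ribosome biogenesis extends far to the right, and class II, germinal centre, NK-cell and T-cell lists to the left.

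Ribosome biogenesis and growth genes, many of them known Myc targets, were the list that rose: 14 of 21 measured members were higher, 0 lower, and the median difference was 1.62, against 0.12 over all genes. Cad, the enzyme that starts pyrimidine synthesis, read 9.58, 9.96 and 10.25 at the lowest, median and highest tumour, against 6.3, 6.23, 6.77, 7.17 and 6.88 in germinal centre cells, a 9.54-fold difference (adjusted p = 7.43e-05, limma). Polr1b, a core subunit of the polymerase that makes ribosomal RNA, read 7.18, 7.69 and 7.93 at the lowest, median and highest tumour, against 3.61, 4.48, 4.67, 4.31 and 5.0 in germinal centre cells (difference 3.22 ± 0.39, adjusted p = 2.26e-07, limma). Srm, the spermidine synthase, read 9.66, 10.44 and 10.74 at the lowest, median and highest tumour, against 6.91, 7.17, 7.34, 7.27 and 7.66 in germinal centre cells (difference 3.08 ± 0.47, adjusted p = 1.45e-05, limma). Each of these was separated on every array, and the tumours varied little.

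The ribosomal assembly factors Nop14 and Nop56 differed by 2.22 and 1.83, and the polymerase subunit Polr1a by 2.0 in its brightest probe set but by 0.26 and 0.05 in its others. Not every member moved: Ncl, nucleolin, differed by 0.32 (adjusted p = 0.568) and Npm1, nucleophosmin, by 0.53 (adjusted p = 0.611, limma), both bright in each group. Summed over the list, the linear signal was 21729 to 28588 in tumours and 11082 to 11911 in germinal centre cells. The lowest tumour for this sum was replicate 6, which also had the lowest Myc. The letters of the E box to which Myc binds, CACGTG, stood in 1 of 16 listed promoters (6.25%), against 7.24% of all, a search added after the values were seen.

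Within the Myc network itself 3 of 11 members rose and 0 fell, with a median of 0.11. The lower count was 2 with only the 2 groups fitted, 3 with array weights, and 1 with the mean of probe sets or without the 3 narrowest arrays. Apart from Myc the members that rose were Mxi1 (difference 2.23, adjusted p = 8.42e-05) and Mxd4 (1.53, adjusted p = 0.00685, limma). Both compete with Myc for its partner Max. These values are of the brightest probe sets. The other Mxi1 probe set differed by 0.2 and the other Mxd4 probe sets by 0.51, 0.01 and 0.94. Mxi1 read 7.84, 8.9 and 9.13 at the lowest, median and highest tumour, against 6.37, 6.56, 6.4, 6.57 and 6.88 in germinal centre cells. The genes flanking Myc on chromosome 15 were not uniformly high. Among the 5 measured neighbours on each side, Ndufb9, a subunit of the respiratory chain, and Sqle, an enzyme of cholesterol synthesis, rose by 1.35 and 1.61, Cyrib fell by 1.34, and the other 7 did not pass. Sqle lost its call without any of 9 single arrays.

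Pvt1, the non-coding gene next to Myc, varied most between tumours in this stretch. It read 8.5, 9.87, 6.59, 9.14, 6.5 and 5.81 in tumour replicates 1 to 6, against 7.01, 6.4, 6.44, 5.71 and 5.58 in germinal centre cells. Tumour replicates 1, 2 and 4 lay above every germinal centre sample and the other tumours within their range (difference 1.51, adjusted p = 0.0928, limma). Myc was above 10 in each of the 6 tumours, including replicates 3, 5 and 6 with the lower Pvt1.

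Cell division genes were mostly uncalled between the tumours and the germinal centre cells. Of 21 mitosis genes 0 were higher and 1 lower, with a median difference of 0.16. Mki67, the proliferation antigen, read 10.45, 10.99 and 11.32 at the lowest, median and highest tumour, against 11.6, 11.46, 10.9, 10.88 and 9.73 in germinal centre cells (difference 0.04 with a 95% interval of ± 0.87, adjusted p = 0.979, limma). Germinal centre replicate 5 was the lowest of all 11 arrays. The same sample had a summed mitosis signal of 4140, against 8680 to 10810 in tumours and 8460 to 13137 in the other germinal centre samples, and it also had the highest Myc of its group. The called member was Cenpe, a kinetochore motor (difference -1.82, adjusted p = 0.0239, limma), which lost its call without any of 4 single arrays. With only the 2 groups fitted 3 mitosis genes were higher and 1 lower, and with array weights 4 and 1.

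DNA replication had 3 of 22 members higher, 0 lower and a median of 0.55. The higher count was 9 with only the 2 groups fitted, 6 without the 3 narrowest arrays, 5 with dim genes removed and 13 with array weights. Pole, the catalytic subunit of a replicative polymerase, read 8.42, 8.77 and 9.05 at the lowest, median and highest tumour, against 6.63, 6.72, 6.63, 7.01 and 6.31 in germinal centre cells (difference 2.1 ± 0.33, adjusted p = 2.08e-05, limma). Mcm10, an initiation factor, differed by 1.76, and Chaf1b, a histone chaperone, by 1.35, the last without its call when any of 6 single arrays was left out. Pcna, the polymerase clamp, was bright in both groups and overlapped (11.15 to 11.62 in tumours, 10.6 to 11.61 in germinal centre cells).

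**Figure D4:**
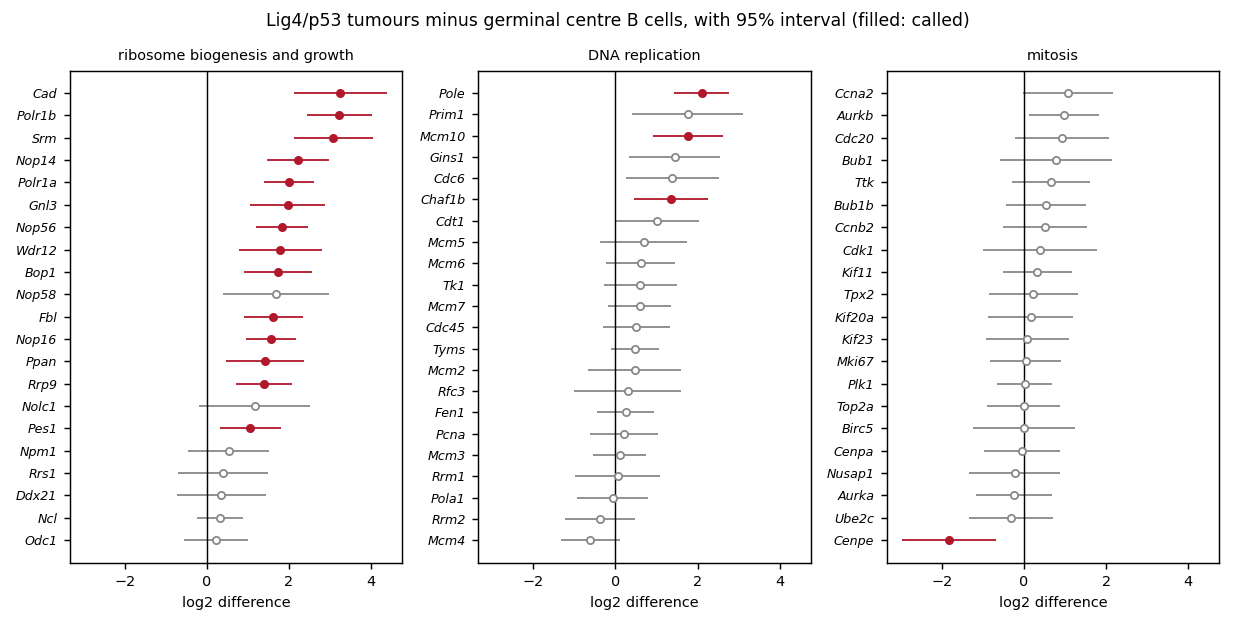
Log2 difference of Lig4/p53 tumours minus germinal centre B cells with its 95% interval (limma) for each measured gene of 3 lists. Filled red points are called at an adjusted p under 0.05. Ribosome biogenesis genes reach 3.25, while mitosis genes sit around a median of 0.16.

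The G1 regulators changed in both directions, with 4 of 17 higher and 4 lower. Without germinal centre replicate 5 these counts were 2 and 3, with the 3' minus 5' covariate 3 and 1, and with array weights 7 and 6. Ccnd1, a D-type cyclin little used by normal B cells, read 8.61, 9.56 and 10.38 at the lowest, median and highest tumour, against 6.76, 6.96, 4.97, 4.74 and 5.32 in germinal centre cells, a 13.9-fold difference (adjusted p = 8.94e-07, limma). Its 3 probe sets gave 1.57, 2.5 and 3.79. Ccnd3, the D-type cyclin of germinal centre and pre-B cells, was lower in tumours (5.33 to 6.86, median 6.03, against 8.34, 8.44, 8.2, 7.89 and 7.14 in germinal centre cells, difference -1.95, adjusted p = 0.00234, limma). Ccnd2, the third of the family, ranged from 6.65 to 10.81 among tumours and from 8.67 to 9.12 among germinal centre samples, and did not pass (adjusted p = 0.726, limma).

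Cdkn2a, the locus of the inhibitors Ink4a and Arf, read 7.01, 7.77 and 8.06 at the lowest, median and highest tumour, against 3.82, 3.9, 3.03, 3.29 and 2.92 in germinal centre cells. All tumours were high and all germinal centre samples near the bottom of the scale, an 18.5-fold difference (4.21 ± 0.31, adjusted p = 1.04e-11, limma). Pro-B cells were low as well (3.28 to 3.83), and the tumours exceeded them by 4.08 (adjusted p = 4.79e-09, limma). The related inhibitors Cdkn2d and Cdkn2c went down, by -2.53 and -1.59. The S-phase cyclin Ccne1 rose by 1.2, the inhibitor Cdkn1c by 0.92 and the retinoblastoma gene Rb1 differed by -1.32, and each call depended on single arrays. Ccne1 lost its call without germinal centre replicate 5 (adjusted p = 0.0575, limma), and Cdkn1c and Rb1 without any of 10 and 7 arrays.

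The tumours lack p53, whose gene was not analysed here, nor was Lig4. Of 17 measured p53 target genes 2 were lower, 0 higher, and the median difference was -0.27. Gadd45a, a growth arrest gene, read 5.04, 5.49 and 5.65 at the lowest, median and highest tumour, against 7.88, 8.36, 8.04, 8.27 and 8.72 in germinal centre cells (difference -2.81 ± 0.40, adjusted p = 5.13e-06, limma). Pmaip1, the death inducer Noxa, differed by -1.43 (adjusted p = 0.0214, limma), with germinal centre replicate 3 inside the tumour range. Cdkn1a, the classical arrest target, did not pass: it read 3.94 to 5.99 (median 4.96) in tumours, against 5.01, 4.26, 4.26, 4.1 and 4.42 in germinal centre cells (adjusted p = 0.649, limma). Mdm2, the p53 antagonist, was below germinal centre cells on every tumour array but missed the threshold (7.76 to 8.42 in tumours, 8.76 to 9.69 in germinal centre cells, adjusted p = 0.105, limma). The count of 2 lower targets was 1 without germinal centre replicate 1, 2 or 5, 4 with the mean of probe sets, 6 without the 3 narrowest arrays, 7 with only the 2 groups fitted and 8 with array weights.

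End joining and break response genes had 2 of 14 members higher, 0 lower and a median of 0.73. The higher count was 9 with only the 2 groups fitted, 8 without the 3 narrowest arrays, 10 with array weights, 1 with the 3' minus 5' covariate and 1 to 3 without single arrays. Lig3, a ligase of the back-up joining pathway, read 7.63, 7.96 and 8.36 at the lowest, median and highest tumour, against 6.24, 6.15, 6.86, 6.8 and 6.87 in germinal centre cells (difference 1.36, adjusted p = 0.0183, limma). Xrcc6, a Ku subunit that binds broken ends, differed by 1.92 (adjusted p = 0.0199, limma). Its partners Xrcc5 and Prkdc differed by 1.16 each without passing (adjusted p = 0.0783 and 0.0876, limma), although Prkdc did not overlap between the groups. Lig3 lost its call without germinal centre replicate 1 or 2, and Xrcc6 without replicate 5. In the Bcl2 family 2 of 12 members were lower, Bcl2 (-1.63) and Pmaip1, both without a call when germinal centre replicate 5, among others, was left out, and Mcl1 overlapped (11.11 to 11.56 in tumours, 11.2 to 11.54 in germinal centre cells). With the 3' minus 5' covariate 0 members of the family were called.

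Immediate early genes, which cells switch on within minutes of a stimulus or of handling, had 10 of 14 members lower in tumours, 0 higher and a median of -2.88. Fos read 3.52, 6.0 and 6.67 at the lowest, median and highest tumour, against 11.11, 11.89, 10.48, 11.77 and 12.13 in germinal centre cells, a 57.5-fold difference (adjusted p = 1.67e-07, limma). Egr1, a zinc finger factor induced by receptor signalling, read 5.3, 6.22 and 7.77 at the lowest, median and highest tumour, against 10.48, 11.34, 11.25, 12.27 and 11.86 in germinal centre cells (difference -5.17, adjusted p = 1.27e-05, limma). Fosb, Egr2 and the phosphatase Dusp1 differed by -4.39, -4.02 and -3.93. Germinal centre cells were sorted from suspension and no sort is given for the tumours, and the part of handling in these levels was not tested. The summed signal of the list was 1561 to 3017 in tumours and 7924 to 19846 in germinal centre cells.

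Markers of other cell types were also higher in the sorted germinal centre cells. NK-cell markers had 9 of 10 members lower in tumours and a median of -3.57, with summed signals of 122 to 305 in tumours and 1412 to 4653 in germinal centre cells. Gzma, a granzyme of killer cells, read 3.29, 4.9 and 6.47 at the lowest, median and highest tumour, against 11.43, 11.36, 9.45, 8.58 and 9.22 in germinal centre cells (difference -5.16, adjusted p = 4.11e-06, limma). Nkg7 and Xcl1, further products of NK and T cells, differed by -4.67 and -4.02. T-cell markers had 9 of 12 members lower and a median of -1.97. Cd3e, a chain of the T-cell receptor complex, read 3.09, 3.36 and 4.22 at the lowest, median and highest tumour, against 7.59, 8.21, 8.15, 7.58 and 8.69 in germinal centre cells (difference -4.47, adjusted p = 1.04e-11, limma), so its tumour values sat near the bottom of the scale.

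Granulocyte markers had 4 of 13 members lower and a median of -1.34. That count was 2 without germinal centre replicate 2 or 3, 1 with the 3' minus 5' covariate and 8 with only the 2 groups fitted. Camp, a granule peptide of neutrophils, read 3.55, 4.54 and 6.28 at the lowest, median and highest tumour, against 10.75, 11.02, 9.76, 7.02 and 9.59 in germinal centre cells (difference -4.89, adjusted p = 2.34e-05, limma). S100a9, another neutrophil protein, was bright in both, at 9.0 to 11.61 (median 9.39) in tumours and at 12.92, 12.95, 12.63, 10.7 and 12.55 in germinal centre cells, and lost its call without any of 9 single arrays. Macrophage and dendritic markers had 3 of 14 lower, with summed signals of 649 to 2959 in tumours and 1479 to 4051 in germinal centre cells. Erythroid markers had 3 of 10 lower, led by the red cell anion exchanger Slc4a1 (-4.5, adjusted p = 6.3e-05, limma), and Hbb-b2, a globin gene, read 4.32 to 6.14 (median 5.07) in tumours against 9.72, 10.25, 10.92, 10.98 and 11.17 in germinal centre cells. With the 3' minus 5' covariate the macrophage and erythroid counts were 1 each, and with only the 2 groups fitted 5 each. Liver transcripts and stroma and vessel markers had 0 members called of 8 and 12. The part of these cells in the other results was not tested.

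**Figure D5:**
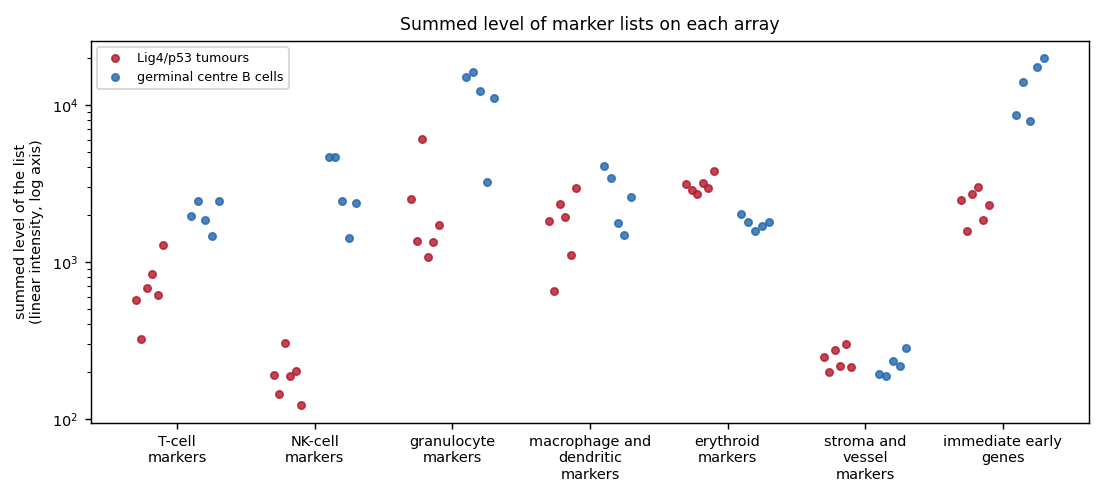
Summed linear signal of each marker list on each array (log axis), Lig4/p53 tumours (n = 6) left of germinal centre B cells (n = 5). NK-cell and T-cell sums are lower in all tumours, macrophage and stromal sums overlap, and the erythroid sum runs the other way with Tfrc, the transferrin receptor of all dividing cells, its brightest member.

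Plasma cell genes had 3 of 9 lower, 0 higher and a median of -0.59. Jchain, which links secreted IgM and IgA, read 3.24, 3.85 and 5.49 at the lowest, median and highest tumour, against 12.07, 11.73, 11.53, 11.58 and 11.1 in germinal centre cells (difference -7.51 ± 0.66, adjusted p = 6.97e-10, limma). Ell2, an elongation factor of secreting cells, differed by -4.58 and the secretory factor Xbp1 by -1.72, the last without its call when any of 7 single arrays was left out. Irf4, a factor of plasma cells and activated B cells, did not pass (9.19 to 10.46 in tumours, 9.38 to 11.39 in germinal centre cells, adjusted p = 0.81, limma).

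Outside the lists, several of the largest increases were genes best known from other tissues. Nav2, a cytoskeletal protein of growing axons, read 9.96, 10.25 and 10.69 at the lowest, median and highest tumour, against 4.75, 5.74, 5.32, 5.91 and 5.18 in germinal centre cells (30.5-fold, adjusted p = 6.87e-11, limma). Cplx2, a complexin of secretory vesicles, read 6.89, 8.19 and 8.54 at the lowest, median and highest tumour, against 2.39, 3.53, 3.34, 3.17 and 3.8 in germinal centre cells (26.8-fold, adjusted p = 3.86e-08, limma). Cplx2 was also high in pro-B cells (8.05 to 9.46, difference -0.79, adjusted p = 0.368, limma), while Nav2 exceeded them by 4.02 (adjusted p = 2.76e-07, limma). Reln, the secreted protein reelin, was 23.2-fold higher (adjusted p = 9.97e-06, limma), with tumour replicate 2 at 6.12 and the others at 8.18 or more.

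Metabolic genes in this set were Elovl6, a fatty acid elongase (22.0-fold by its brightest probe set, with a difference of 1.37 in the other), Gsto1, a glutathione transferase (19.4-fold), and Car12, a carbonic anhydrase (13.7-fold). Smyd2, a lysine methyltransferase, Tbc1d24, a vesicle traffic protein, and Sema4g, a semaphorin, were higher by 4.09, 3.9 and 3.8 on the log2 scale (all called by limma and without overlap). Gsto1 and Tbc1d24 were as high in the Bcl6 tumours (differences 0.02 and 0.34, adjusted p = 0.976 and 0.597, limma). Elovl6, Car12, Smyd2 and Sema4g were called higher than there, by 4.56, 3.31, 3.58 and 2.43. Among the largest decreases not yet described were Rgs1, a brake on chemokine receptors in B cells (35.5-fold, adjusted p = 4.11e-06, limma), and Gabbr1, a GABA receptor subunit, whose decrease of 40.8-fold stood in 1 of its 4 probe sets, while the others differed by -0.85 to 0.16.

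Set against the 4 Bcl6 tumours, growth genes were again higher. The 18S signal of the Bcl6 tumours was 4.14 to 4.65, a range that overlaps the 4.15 to 6.15 of the Lig4/p53 tumours. Their 3' minus 5' difference, 3.65 to 4.6, lay wholly above the 2.25 to 3.64 of the Lig4/p53 tumours, so its part cannot be told apart from the tumour type. With 18S signal as a covariate 75 of the 147 genes followed were called between the tumour types, against 79 without that covariate. Replicate 2 of the Bcl6 tumours was one of the arrays of narrow spread. Of all genes 3271 (26.4%) were called between these tumour types, 15.5% higher and 10.9% lower in Lig4/p53 tumours (limma, adjusted p under 0.05). Ribosome biogenesis had 16 of 21 members higher, DNA replication 12 of 22 and mitosis 8 of 21, with 0 lower in each. Genes of stroma and vessels had 8 of 12 members lower and 1 higher in Lig4/p53 tumours, and macrophage and dendritic markers 7 of 14 lower, and the part of these other cells in the growth counts was not tested.

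Set against the 3 pro-B samples, 2613 genes (21.1%) were called, 13.2% higher and 7.91% lower in Lig4/p53 tumours, and the separation by 18S signal given above applies to all of them. Ribosome biogenesis had 13 of 21 members higher and 0 lower, and progenitor transcription factors had 0 higher and 7 of 16 lower. Granulocyte markers were lower for 12 of 13 members, and Camp read 10.4 to 11.26 in pro-B cells (difference of tumours from them -6.07, adjusted p = 2.13e-05, limma).

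The 6 Lig4/p53 tumours were not alike in every gene. Counting genes that reach 7 and stand at least 2 (log2) from all other tumours, replicate 6 was above the others in 29 genes and below in 3, replicate 3 above in 2 and below in 17, replicate 2 below in 4, and replicates 1, 4 and 5 in 0. In replicate 6 they included Cxcl2 (8.79, others 2.56 to 3.06), Arg1 (8.49, others 2.91 to 3.54), Mmp12 (8.0, others 2.63 to 3.99) and the scavenger receptor Msr1 (8.93, others 4.51 to 5.33), genes of activated macrophages. Its summed macrophage and dendritic signal, 2959, was the highest of the tumours and within the germinal centre range. Replicate 6 also had Ccnd2 at 10.81 and Gbp7, an interferon-induced GTPase, at 10.83.

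Genes of largest spread among tumours included Slc15a2, a peptide transporter, which read 4.47, 3.11, 9.22, 8.79, 4.62 and 6.67 in tumour replicates 1 to 6, against 9.73, 8.68, 8.92, 8.0 and 9.87 in germinal centre cells. Tumour replicates 3 and 4 stood in the germinal centre range and the rest below it. Basp1, a membrane protein of activated B cells and neurons, ranged from 5.2 to 9.77 among tumours, below 11.65, 11.72, 11.82, 12.13 and 10.86 in germinal centre cells (difference -3.8, adjusted p = 2.56e-05, limma). Erdr1 was at 6.59 in tumour replicate 3 and at 10.34 to 11.4 in the others, but one germinal centre sample, replicate 2, was as low, at 6.44. The replicates of low Rag1, Rag2, Reln, Igll1 and Iglv1 were the same tumour, replicate 2, whose Il7r, at 7.27, was also the lowest.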

How the data were processed

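RNA was extracted with Tripure, amplified with the NuGen Ovation kit, labelled with biotin and read on Affymetrix Mouse 430A2 chips (labels' protocols). The authors deposited log2 intensities per probe set, summarised with RMA, per the submitters' processing notes; its version and which arrays were normalized together are not given in the sources used here. Of 22690 probe sets, 64 controls, 691 with several genes and 1555 with none were left out, and the probe set with the highest mean over 35 arrays stood for each of 12393 genes. Samples were grouped by title. limma 3.58.1 in R 4.3.3 was fitted to all 35 arrays in 9 groups, with Benjamini-Hochberg adjustment over all genes and calls under 0.05, after a test on simulated data. The number of arrays limits the precision.

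The members and gene lists were chosen with earlier results of these data known. Named genes are Myc, Bcl6, Sox4 and Gcsam, the 12 largest increases and decreases among called genes whose arrays do not overlap, up to 5 members of smallest p in each list, the 8 genes of largest SD among tumours that reach 9, and 5 measured neighbours on each side of Myc. Other list members, the immunoglobulin genes and genes standing apart in 1 tumour were named after their values were seen. Summed signals are sums of 2 to the power of the log2 values. Promoters came from RefSeq (GRCm38.p6). Lig4 and Trp53 were not analysed here. Alternatives were fits of the 2 groups alone, the mean of probe sets, a filter on dim genes, 2 further normalizations, a trended prior, array weights, RNA quality covariates, the replicate number as a block and leaving out each array.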

Additional observations from a re-analysis of the deposited data

Results flagged for a closer look

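Of 294 gene and group pairs tested with Dixon's ratio (critical values 0.625 for 6 arrays and 0.71 for 5), 30 had 1 array far from the others of its group, 23 in Lig4/p53 tumours and 7 in germinal centre B cells. Chance flags about 1 in 20 pairs, and some genes had been chosen for their spread among tumours or for standing apart in 1 of them.

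In tumour replicate 2 the recombinase and light chain genes were low. Rag1 was at 5.83 (other tumours 7.93 to 9.18), Rag2 at 3.29 (5.08 to 5.92), Igll1 at 6.88 (8.69 to 9.16) and Iglv1 at 5.7 (8.3 to 9.7).

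In tumour replicate 3 the B-lineage factor Ebf1 was at 6.12 (other tumours 8.45 to 8.73), Igkv8-30 at 10.37 (11.69 to 11.84), the Max partner Mxi1 at 7.84 (8.85 to 9.13) and Erdr1 at 6.59 (10.34 to 11.4). Car12, a carbonic anhydrase, was high at 7.8 (6.81 to 7.05).

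Tumour replicate 6 was high in macrophage and inflammatory genes. Cxcl2 was at 8.79 (other tumours 2.56 to 3.06), Arg1 at 8.49 (2.91 to 3.54), Mmp12 at 8.0 (2.63 to 3.99), Msr1 at 8.93 (4.51 to 5.33), Clec4d at 9.57 (4.8 to 5.63) and Gbp7 at 10.83 (4.62 to 6.62). It was also high in Runx1 at 5.49 (3.48 to 4.23), the B-cell co-activator Pou2af1 at 11.98 (11.09 to 11.29), Mycn at 6.56 (4.87 to 5.16) and Egr2 at 6.18 (4.05 to 4.77). It was low in Irf8 at 7.72 (8.35 to 8.53), Srm at 9.66 (10.37 to 10.74), Xrcc5 at 7.63 (8.58 to 8.76) and Smyd2 at 8.42 (9.12 to 9.46).

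Germinal centre replicate 5 had high Myc at 10.23 (other germinal centre samples 7.75 to 8.44) and low Mybl1 at 3.22 (5.5 to 6.15), Ezh2, a histone methyltransferase of dividing germinal centre cells, at 7.04 (8.35 to 8.62) and Slamf1 at 7.49 (8.5 to 8.85). Germinal centre replicate 3 was low in Pmaip1 at 5.95 (7.62 to 8.06) and Rgs1 at 6.06 (8.84 to 9.78), and replicate 4 in the neutrophil gene S100a9 at 10.7 (12.55 to 12.95).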

How the results depend on the processing

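Calls were 1140 higher and 814 lower in Lig4/p53 tumours than in germinal centre B cells. They came to 2498 and 1791 with only the 2 groups fitted, 3252 and 2233 with array weights (a fit that stopped before converging), 718 and 523 with the 3' minus 5' difference as a covariate, 5 and 13 with 18S signal as a covariate, and 1928 and 1383 without the 3 arrays of narrowest spread, an alternative added after seeing the data. With the replicate block they were 2460 and 1676, against 2639 and 1841 for the same 10 arrays without it, which was also added. Samples of the same number correlated at -0.052 to -0.003 in their deviations, so the numbers do not pair them. Leaving out single arrays gave 894 to 1132 higher and 676 to 772 lower. The other settings stayed within 1.5 times: 1160 and 976 with the mean of probe sets, 865 and 687 with dim genes removed, 965 and 702 after quantile normalization, 1291 and 773 with equal medians, 1068 and 790 with a trended prior.

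Of 110 called genes among the 147 followed, 93 kept their call with the 3' minus 5' covariate and 99 to 107 without single arrays. With the 18S covariate 4 kept it, 95 lost it and 11 turned: Runx1 to 0.41, Gna13 to 0.87, Sqle to -1.52, Cenpe to 0.95, Pole to -0.04, Chaf1b to -0.13, Ccnd3 to 0.1, Rb1 to 0.03, Gadd45a to 0.0, Pmaip1 to 0.19 and Bcl2 to 0.46. That covariate separates the groups without overlap, and the cause of the turns was not tested. Of the same 147 genes 66 were called against pro-B cells and 1 with the 18S covariate. Against Bcl6 tumours 79 were called, and 75 with it. The mean of the probe sets turned Ighm to -2.94, since its probe sets disagree. With dim genes removed, T-cell markers had 3 of 4 and NK-cell markers 4 of 5 members lower, and germinal centre genes 5 of 9. Mature B-cell surface genes had 14 of 15 lower with array weights. Probe sets near the bottom of the scale limit folds of dim genes.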
